A study of Mus musculus with 8 samples.

Results

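The chaperones of the cytosol and the mitochondria were followed in epididymal white fat of mice lacking the lysophosphatidic acid receptor LPA4. Members were taken by gene symbol alone, from the annotation of the Affymetrix array: the Dnaja, Dnajb and Dnajc families, the Hspa, Hspb, Hspd, Hspe and Hsph families, Hsp90aa1, the CCT subunits, and the partners Stip1, Ahsa1, Ahsa2, Cacybp, Chordc1 and Cryab. The endoplasmic reticulum chaperones Hspa5, Dnajb9 and Dnajc3 were left out by the rule. This gave 81 of the 18193 genes that the array measures with a probe set of their own. The symbol rule also takes in Dnajb11, Dnajc1, Dnajc10 and Hspa13, which work in the endoplasmic reticulum, and Hspb11, a subunit of the intraflagellar transport machinery. The description by compartment does not hold for at least those 5 genes, and it was not checked for every other member.

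The knockout group held 4 samples from male mice on the C57BL/6 background, 12 weeks old and fed standard chow. In these mice the single X-linked copy of the receptor gene was inactivated (Lpar4 -/Y, here LPA4-KO). The wild-type group (WT) held 4 samples from male littermates of the same age, background and diet. The labels name no promoter or cell type to which the loss was limited, so the loss was not limited to fat as far as they say. Snap-frozen whole fat pads were extracted, and 1 array was run per sample. In such bulk tissue, fewer cells of a type and less RNA per cell cannot be told apart. The labels call the samples biological replicates without numbering the animals.

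Chaperones bind proteins that are unfolded, newly made or on their way into an organelle. Hsp70 proteins hold short hydrophobic stretches in a cycle driven by ATP, which J-domain proteins (Dnaja, Dnajb, Dnajc) start and Hsp110 proteins reset by exchanging the nucleotide. Hsp90 then matures kinases and nuclear receptors with the help of partner proteins, while the Hsp60 and Hsp10 barrel folds proteins imported into mitochondria, the CCT ring folds actin and tubulin, and small heat shock proteins hold unfolded chains without ATP. Fat cells, like others, import most of their mitochondrial proteins and need the matrix chaperones to fold them. Many of these genes are targets of the transcription factor HSF1, which binds inverted repeats of the unit GAA.

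Start-site sequences of the members were searched for that repeat. In RefSeq windows of GRCm38.p6, running from 250 bases before to 50 bases after each start, the 2-unit motif was GAANNTTC or TTCNNGAA, and the 3-unit motif was GAANNTTCNNGAA or TTCNNGAANNTTC. Both strands were covered, overlapping matches were counted, and each 3-unit match contains 2-unit matches. Of the 81 members, 66 had a window. A 2-unit match was present in 21 of them (31.8%), against 17.0% of all 27025 genes with a window. A 3-unit match was present in 5 of them (7.58%), against 0.662% of all genes. The 5 were Hsph1, Hspd1, Hspe1, Chordc1 and Dnajb6. These shares describe the letters only; a match is not a shown binding site, and no test was made.

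The stretches below belong to members whose values carry the account that follows, printed from 5′ to 3′ on the gene's own strand, with the matching letters in capitals. Those of Hsph1, which has windows for more than 1 start, are placed from the outermost start: they lie at chr5:149636337-149636394 on the minus strand, just before the start, and at chr5:149636287-149636301, 36 to 50 bases after it, where the 3-unit match lies. Hspd1 also has windows for more than 1 start. From the start whose window holds the match, Hspe1 and Hspd1 point away from each other with starts 216 bases apart; the other Hspd1 start lies beyond that of Hspe1, and its window holds no match. The stretch between the starts, at chr1:55088034-55088101 on the plus strand, counts for both. That of Dnaja1 lies at chr4:40722319-40722376 (plus), that of Hspa1b at chr17:34959310-34959367 (minus), that of Dnajb6 at chr5:29735827-29735889 (plus), and that of Chordc1 spans the start at chr9:18292260-18292288 (plus).
Hsph1: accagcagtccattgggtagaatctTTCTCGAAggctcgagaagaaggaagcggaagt
Hsph1 after the start: aTTCTGGAAAGTTCt
Hspe1 and Hspd1: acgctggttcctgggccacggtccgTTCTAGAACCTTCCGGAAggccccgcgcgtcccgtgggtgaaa
Dnaja1: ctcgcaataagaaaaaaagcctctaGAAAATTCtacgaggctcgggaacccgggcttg
Hspa1b: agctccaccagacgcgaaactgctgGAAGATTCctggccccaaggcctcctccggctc
Chordc1: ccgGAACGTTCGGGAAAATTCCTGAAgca
Dnajb6: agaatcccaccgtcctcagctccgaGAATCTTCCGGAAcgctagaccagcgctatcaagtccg

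All values below are the deposited array values, which were read as log2 of a normalised intensity, so that a difference of 1 means a doubling. The array medians lay between 6.50 and 6.51. Where a gene had several probe sets, the one with the highest mean stands for it. Many deposited probe sets hardly move across arrays. Over the 8 arrays, 42 members had a range of at most 0.0328, although some of them had mean values as high as 11.25, and the smallest range among the other 39 was 0.189. Genes with a range above 0.1 are called varying here. They made up 39 of the 81 members and 4029 of all 18193 genes. A nearly constant probe set gives no measurement of a change on these arrays, and the cause of the constancy was not tested. Of the 42 members, 6 had another probe set that varied but did not stand for the gene. Of 3 probe sets of Lpar4, only 1 was lower in LPA4-KO: it read 5.80 ± 0.05 (SD, n = 4) in LPA4-KO and 6.52 ± 0.03 (SD, n = 4) in WT (adjusted p = 0.0033). The others read 7.11 against 6.43 and 7.35 against 6.87, higher in LPA4-KO, with adjusted p = 0.233 and 0.392. Fat cell markers were present, with Cidec at 13.02 in LPA4-KO and 12.85 in WT, and the 5 epididymis and 8 testis markers measured were all nearly constant.

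Chaperone genes were mostly higher in LPA4-KO fat. Of the 39 varying members, 31 had a positive difference and 8 a negative one, with a median of 0.22; of all 4029 varying genes, 1876 were positive and 2153 negative, with a median of -0.03. In limma's fit over all 18193 genes, with Benjamini-Hochberg adjustment, 6 members rose at an adjusted p under 0.05 and 0 fell (at an unadjusted p under 0.05, 22 varying members were higher and 4 lower). The background is 0.863% of all genes higher and 0.451% lower. The 6 were Hsph1, Dnaja1, Hspd1, Cacybp, Ahsa2 and Stip1. This count rests on having all 8 arrays: with any 1 array left out it was 0 or 1, being 0 when either of LPA4-KO replicates 1 and 3 or of WT replicates 2 and 3 was dropped, and 1 for each of the other arrays. Over all genes, the calls dropped from 239 to between 9 and 88 in these smaller fits.

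When the 4029 varying genes were fitted alone, 15 members rose and 4 fell, where 9.78% of varying genes rose and 11.5% fell. The 9 further genes that rose were Hspa9, Hspa1a, Hspa1b, Hspa2, Dnajb1, Dnajb14, Dnajc15, Hspe1 and Chordc1, and the 4 that fell were Cryab, Hspb7, Dnajc10 and Dnajc6. With 1 array left out in turn, 9 to 14 members rose and 1 to 3 fell in this fit. The 9 came without WT replicate 3. Only 1 fell when LPA4-KO replicate 1, LPA4-KO replicate 3, WT replicate 2 or WT replicate 3 was dropped, and 2 fell without LPA4-KO replicate 4. Through all 8 of these fits, 8 of the genes that rose still passed (Hsph1, Dnaja1, Dnajb1, Dnajc15, Hspd1, Cacybp, Ahsa2 and Chordc1), as did 1 that fell, Cryab. All 19 genes kept the sign of their difference. The 4 LPA4-KO values all lay above the 4 WT values in 20 of the 39 varying members and all below them in 4, where 14.4% and 14.5% of varying genes did so.

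**Figure D1:**
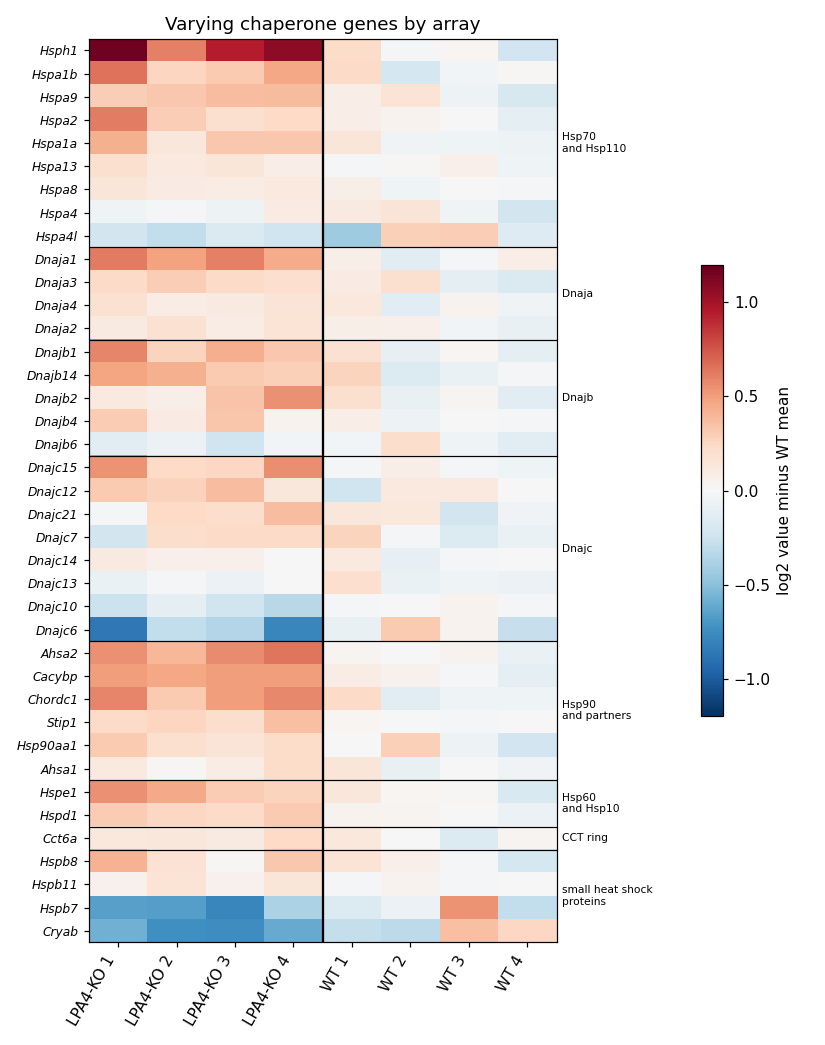
Each row is a varying chaperone gene, grouped by family, and each column an array; colour is the log2 value minus the gene's WT mean. The LPA4-KO columns are mostly above the WT mean in the Hsp70, Hsp90 and Hsp60 rows and below it for Cryab, Hspb7 and Dnajc6.

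The arrays differed in how far the higher members stood out. The members were sorted here by the sign of their difference in these same arrays, so a gap between the groups follows from the sorting. Only the spread among arrays of the same group is described. Over the 31 members with a positive difference, the median deviation from the WT mean was 0.31, 0.24, 0.23 and 0.29 in LPA4-KO replicates 1 to 4 and 0.10, 0.00, -0.01 and -0.05 in WT replicates 1 to 4. LPA4-KO replicate 1 held the highest value for 15 of the 31 and WT replicate 4 the lowest for 16. Over these members WT replicate 1 was the WT array nearest to the LPA4-KO group. Over the 8 members with a negative difference it was WT replicate 4, at -0.14, with the LPA4-KO arrays between -0.29 and -0.21 and the other WT arrays between -0.06 and 0.07.

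Among the Hsp70 and Hsp110 genes, 9 of 13 varied, of which 7 had positive and 2 negative differences, with a median of 0.30. Hsph1, the Hsp110 protein that exchanges the nucleotide of Hsp70, read 9.01, 8.44, 8.79 and 8.91 in the LPA4-KO arrays and 8.06, 7.83, 7.87 and 7.61 in the WT arrays. The groups did not overlap, and LPA4-KO replicate 2 was the lowest of its group. Hsph1 rose by 0.95 ± 0.15 (SE), or 1.93-fold, from 7.84 ± 0.19 to 8.79 ± 0.25 (SD, n = 4; adjusted p = 0.0463), the largest difference among the members. Its second probe set differed by 0.89 ± 0.16 (SE). The other Hsp110 genes did not pass the test. Hspa4 differed by -0.01 ± 0.09 (SE, adjusted p = 0.980) at its main probe set, while 2 further varying probe sets gave 0.31 ± 0.09 and 0.22 ± 0.14 (SE), so its direction depends on the probe set and on the scaling. Hspa4l was lower in LPA4-KO at all 5 of its varying probe sets, by 0.17 to 0.48, with a main difference of -0.23 ± 0.17 (SE, adjusted p = 0.560).

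Hspa9, the Hsp70 of the mitochondrial matrix, read 10.50, 10.53, 10.58 and 10.59 in LPA4-KO and 10.29, 10.37, 10.15 and 10.01 in WT. The groups did not overlap, and the WT arrays spread over a wider range. The difference was 0.34 ± 0.08 (SE; adjusted p = 0.0946 over all genes and 0.0218 among varying genes), and the second varying probe set gave 0.33. Hspa9 passed among varying genes in 5 of the 8 fits with an array left out. Hspa8, the constitutive Hsp70 of the cytosol, read 12.03, 11.98, 11.97 and 12.00 in LPA4-KO and 11.95, 11.84, 11.88 and 11.87 in WT. Its groups also did not overlap, with a difference of 0.11 ± 0.03 (SE; adjusted p = 0.103). Another probe set of Hspa8 gave 0.66 ± 0.23 (SE), with its highest value in LPA4-KO replicate 2.

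The stress-inducible Hsp70 genes, named after their values were seen, were also higher. Hspa1b read 9.64, 9.24, 9.30 and 9.45 in LPA4-KO and 9.22, 8.77, 8.95 and 8.999 in WT, a difference of 0.42 ± 0.12 (SE; adjusted p = 0.156 over all genes and 0.0331 among varying genes). Hspa1a differed by 0.30 ± 0.08 (SE; 0.114 and 0.0399). The 2 genes are near-identical copies whose probes can take up each other's RNA, so they are not independent measurements. Each passed among varying genes in 2 of the 8 fits with an array left out. Hspa2, known from germ cells and muscle, differed by 0.34 ± 0.10 (SE; 0.161 and 0.0495) and passed in 0 of those 8 fits.

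**Figure D2:**
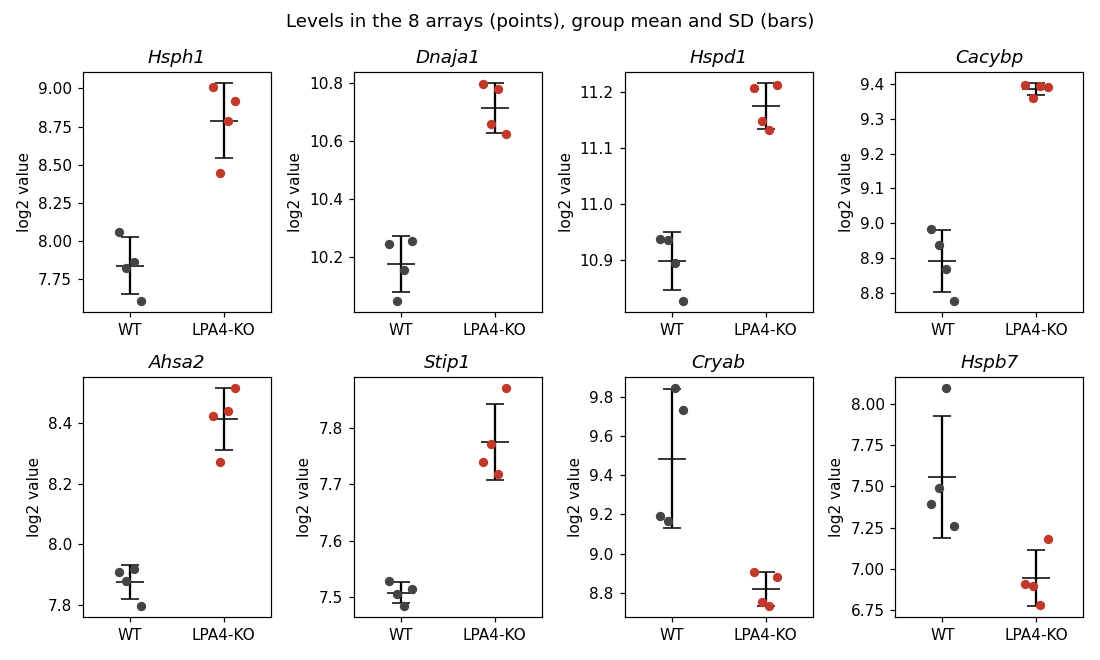
Log2 value of single chaperone genes by group, each point an array, with the group mean and its SD over 4 arrays as bars; the axes differ between panels and do not start at 0. Hsph1, Dnaja1, Hspd1, Cacybp, Ahsa2 and Stip1 have no overlap between the groups, with LPA4-KO higher, while Cryab and Hspb7 have all LPA4-KO arrays below the WT arrays.

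All 4 Dnaja genes, the J-domain proteins most like the bacterial DnaJ, varied and had positive differences. Dnaja1, a farnesylated partner of Hsp70 in the cytosol, read 10.80, 10.66, 10.78 and 10.62 in LPA4-KO and 10.25, 10.05, 10.16 and 10.25 in WT. It rose by 0.54 ± 0.06 (SE), 1.45-fold (adjusted p = 0.0292). Both further probe sets were higher too, by 0.49 ± 0.08 and 0.43 ± 0.12 (SE), with no overlap between the groups at any of the 3. Dnaja2 differed by 0.13 ± 0.04 (SE, adjusted p = 0.179), Dnaja4 by 0.13 ± 0.06 (0.291), and Dnaja3, the mitochondrial member, by 0.24 ± 0.09 (0.226).

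Of the 12 Dnajb genes 5 varied, and none passed the test over all genes. Dnajb1, the classical heat-inducible J-domain protein, read 9.50, 9.18, 9.35 and 9.24 in LPA4-KO and 9.10, 8.82, 8.94 and 8.81 in WT. The groups did not overlap, and the difference was 0.40 ± 0.09 (SE; adjusted p = 0.0955 over all genes and 0.0201 among varying genes). Dnajb14, anchored in the endoplasmic reticulum membrane and facing the cytosol, differed by 0.38 ± 0.10 (0.127 and 0.0301) and passed among varying genes in 2 of the 8 fits with an array left out. Dnajb4 differed by 0.19 ± 0.08 (0.258). Dnajb6, a suppressor of protein aggregation, was the exception in sign at -0.12 ± 0.08 (0.515). Its window holds a 3-unit match, as do windows of Hsph1, Hspd1, Hspe1 and Chordc1.

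Of the 26 Dnajc genes 8 varied, 5 with positive and 3 with negative differences. Dnajc15, a J-domain protein of the mitochondrial inner membrane, read 10.66, 10.36, 10.37 and 10.68 in LPA4-KO and 10.10, 10.20, 10.11 and 10.07 in WT. The LPA4-KO values fell into a higher and a lower pair, both above every WT value, and the difference was 0.40 ± 0.09 (SE; adjusted p = 0.0878 over all genes and 0.0184 among varying genes). Dnajc10, a disulphide reductase of the endoplasmic reticulum, read 8.68, 8.81, 8.69 and 8.60 in LPA4-KO and 8.92, 8.93, 8.98 and 8.91 in WT. It differed by -0.24 ± 0.05 (SE; 0.0688 and 0.0335), with no overlap. Dnajc6, the auxilin that strips clathrin coats from vesicles, differed by -0.57 ± 0.19 (SE; 0.186 and 0.0428), with no overlap. Dnajc10 and Dnajc6 each passed among varying genes in 2 of the 8 fits with an array left out. Dnajc7 differed by 0.11 ± 0.14 (0.759).

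All 6 measured genes of Hsp90 and its partners varied, and all 6 differences were positive, with a median of 0.38. Of these, 3 passed over all genes and 4 among varying genes. Hsp90ab1, which the symbol rule covers, is not among the 6, because no probe set names it alone. Cacybp, which binds Hsp90 and the Siah ubiquitin ligases, had the smallest adjusted p of the members, at 0.0213. It read 9.40, 9.36, 9.40 and 9.39 in LPA4-KO and 8.98, 8.94, 8.87 and 8.78 in WT, a rise of 0.49 ± 0.04 (SE), 1.41-fold. The LPA4-KO arrays were almost equal to each other.

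Ahsa2, a relative of the Hsp90 activator Ahsa1, read 8.42, 8.27, 8.44 and 8.52 in LPA4-KO and 7.91, 7.88, 7.92 and 7.79 in WT, and rose by 0.54 ± 0.06 (SE), 1.45-fold (adjusted p = 0.0247). Ahsa1, the activator of the Hsp90 ATPase, differed by 0.11 ± 0.06 (0.443). Stip1, the adaptor that links Hsp70 to Hsp90, read 7.74, 7.77, 7.72 and 7.87 in LPA4-KO and 7.53, 7.51, 7.48 and 7.52 in WT, and rose by 0.27 ± 0.03 (SE), 1.20-fold (0.0319). Hsp90aa1, the inducible Hsp90 itself, read 11.69, 11.57, 11.53 and 11.59 in LPA4-KO and 11.38, 11.66, 11.32 and 11.15 in WT. WT replicate 2 overlapped the LPA4-KO values, and the difference of 0.22 ± 0.11 (SE) did not pass (0.360). Chordc1, a zinc-binding partner of Hsp90 named after its values were seen, differed by 0.49 ± 0.10 (0.0720 over all genes and 0.0128 among varying genes), with no overlap.

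**Figure D3:**
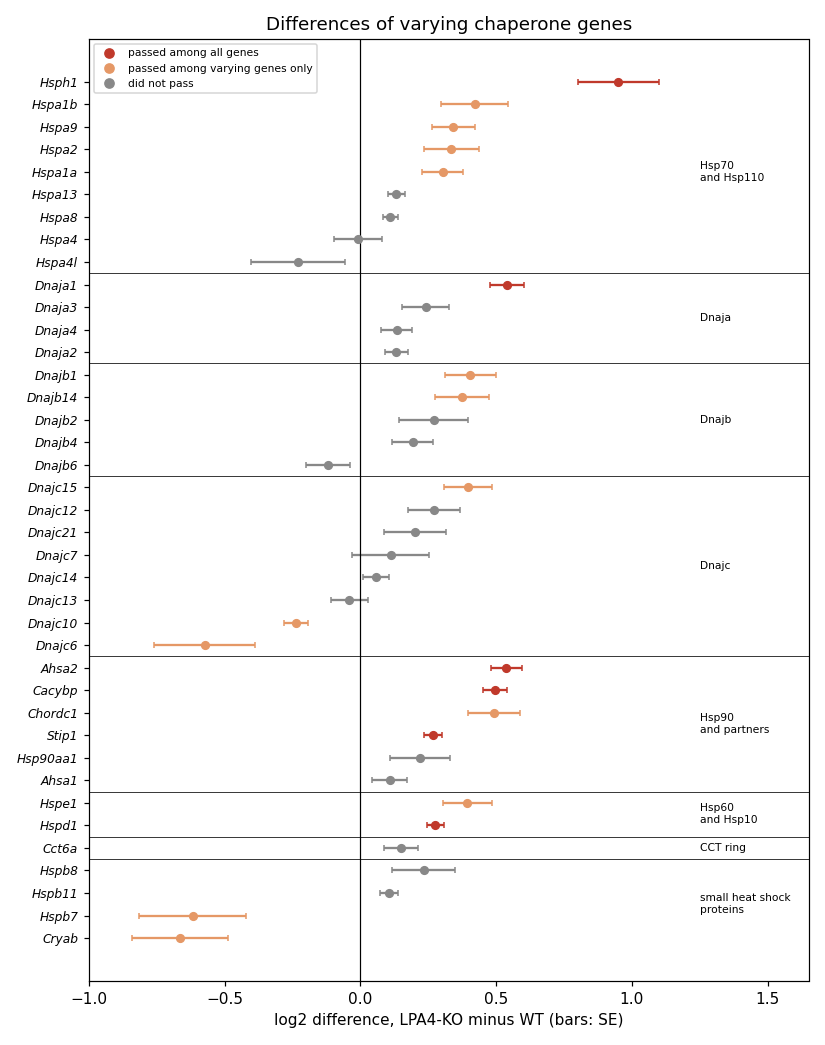
Difference LPA4-KO minus WT (log2) for every varying chaperone gene, by family, with the standard error as bar; red genes passed over all genes, orange ones only among varying genes, and grey ones in neither fit. The 6 genes that rose over all genes lie between 0.27 (Stip1) and 0.95 (Hsph1); Cryab, Hspb7 and Dnajc6 have the largest negative values.

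Both parts of the mitochondrial folding barrel were higher. Hspd1, which forms the Hsp60 barrel, read 11.21, 11.15, 11.13 and 11.21 in LPA4-KO and 10.94, 10.94, 10.89 and 10.83 in WT. It rose by 0.28 ± 0.03 (SE), 1.21-fold (adjusted p = 0.0292). Hspe1, the Hsp10 lid encoded next to it on the opposite strand, read 9.92, 9.83, 9.68 and 9.64 in LPA4-KO and 9.51, 9.40, 9.39 and 9.19 in WT. It differed by 0.39 ± 0.09 (SE; 0.0946 over all genes and 0.0201 among varying genes), with no overlap. Hspe1 passed among varying genes in 6 of the 8 fits with an array left out.

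The symbol rule placed 9 genes with the CCT ring, among them Cct6b and Cct8l1. Of these 9, only Cct6a varied at its main probe set, with a difference of 0.15 ± 0.06 (SE, adjusted p = 0.297) and overlapping groups. The ring subunit Tcp1, which the rule does not take in, was nearly constant. Cct3 was nearly constant at its main probe set, but another probe set read 9.72, 9.68, 9.70 and 9.79 in LPA4-KO and 9.48, 9.57, 9.54 and 9.50 in WT, a difference of 0.20 ± 0.03 (SE; 0.0437 among varying probe sets). Cct3 was named after its values were seen. The arrays therefore leave most of this family unmeasured.

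The small heat shock proteins were the family in which the negative differences were largest. Of the 9 genes that the symbol rule placed here 4 varied, 2 in each direction. Hspb11, the subunit of the intraflagellar transport machinery, is counted among those that were higher. Cryab, the alpha-B crystallin that holds unfolded proteins in muscle and lens, read 8.91, 8.75, 8.73 and 8.88 in LPA4-KO and 9.19, 9.17, 9.84 and 9.73 in WT. The WT arrays fell into a lower and a higher pair, both above every LPA4-KO value. The difference was -0.66 ± 0.18 (SE), 1.59-fold lower (adjusted p = 0.127 over all genes and 0.0203 among varying genes), and -0.56 ± 0.17 (SE) at the second varying probe set.

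Hspb7, a small heat shock protein of heart and muscle named after its values were seen, read 6.91, 6.89, 6.78 and 7.18 in LPA4-KO and 7.39, 7.49, 8.10 and 7.26 in WT, a difference of -0.62 ± 0.20 (SE; 0.182 and 0.0362). WT replicate 3 was the highest array for both. Acta2, the smooth muscle actin, was highest in the same array and fell by 1.31 ± 0.21 (SE; adjusted p = 0.0498), with Acta1, the skeletal muscle actin, at -0.72 ± 0.42 (0.435). Of the 5 smooth muscle markers, 3 varied, 2 higher and 1 lower, with a mean of the varying markers per array of 8.74 to 8.90 in LPA4-KO and 8.88 to 9.43 in WT. Of the 6 skeletal muscle markers only Acta1 varied, and Ckm was nearly constant at 6.51. The part of muscle cells in the Cryab and Hspb7 differences was not tested. Hspb8 and Hspb11 differed by 0.23 ± 0.12 (0.360) and 0.11 ± 0.03 (0.171), both higher.

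Different probe sets of a gene mostly gave the same direction. Of 22 members with at least 2 varying probe sets, 20 had 1 sign at all of them, and Dnajc21 and Hspa4 had mixed signs. Among the 78 varying member probe sets, 56 differences were positive and 22 negative. Over all 34945 named probe sets 9 of the members' rose and 1 fell, where 0.612% of all rose and 0.321% fell. When varying probe sets were fitted alone, 20 rose, in 16 genes, and 7 fell, in 5 genes, where 8.35% of varying named probe sets rose and 10.5% fell.

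**Figure D4:**
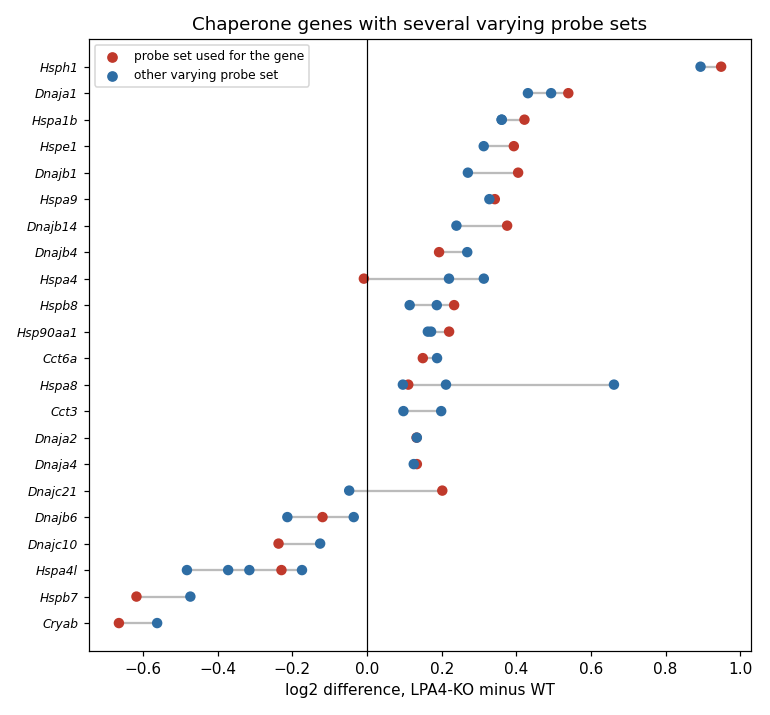
Difference LPA4-KO minus WT (log2) at each varying probe set of the 22 chaperone genes with at least 2 of them, a row per gene, with the probe set used for the gene in red and the others in blue. The 3 probe sets of Dnaja1 and both of Hsph1 lie to the right of zero, all 5 of Hspa4l to the left, and those of Hspa4 on both sides.

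Related members were then compared within each array, which removes any shift that an array applies to both genes. Hsph1 minus Hspa4 changed by 0.96 and Dnaja1 minus Dnaja2 by 0.41, each with no overlap between the groups. Hspa8 minus Hspa9 changed by -0.23, Dnaja1 minus Dnajb1 by 0.13 and Hspd1 minus Hspe1 by -0.12. The 2-sided exact permutation p was 0.0286 for the first and second, the smallest that 4 against 4 allows, and 0.0571, 0.114 and 0.20 for the others. After adjustment over the 5 pairs the lowest was 0.0714, so no pair passed. The Hspa4 pair was smaller, at 0.73, with the most variable probe set of each gene.

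The start-site matches were set beside these calls. Of the 6 genes that rose over all genes, 3 had a 2-unit match (Dnaja1, Hspd1, Hsph1) and 2 a 3-unit match (Hspd1, Hsph1); Cacybp, Ahsa2 and Stip1 had none of these letters in the window. Of the 14 with a window that rose among varying genes, 7 had a 2-unit and 4 a 3-unit match. Hspd1 and Hspe1 share theirs. The 7 also include the near-identical copies Hspa1a and Hspa1b, each with a match 104 bases before its start. Of the 16 varying members with a window that passed in neither fit, 5 had a 2-unit match and 1, Dnajb6, a 3-unit match. Over all genes with a window the shares were 17.0% and 0.662%, and over the 66 members with a window they were 31.8% and 7.58%. Among the 33 nearly constant members with a window, whose change was not measured at the probe set used, 8 had a 2-unit match and 0 a 3-unit match. Dnajc10 was the 1 of 3 genes with a window that fell and had a 2-unit match. The counts are small, and no test was made.

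**Figure D5:**
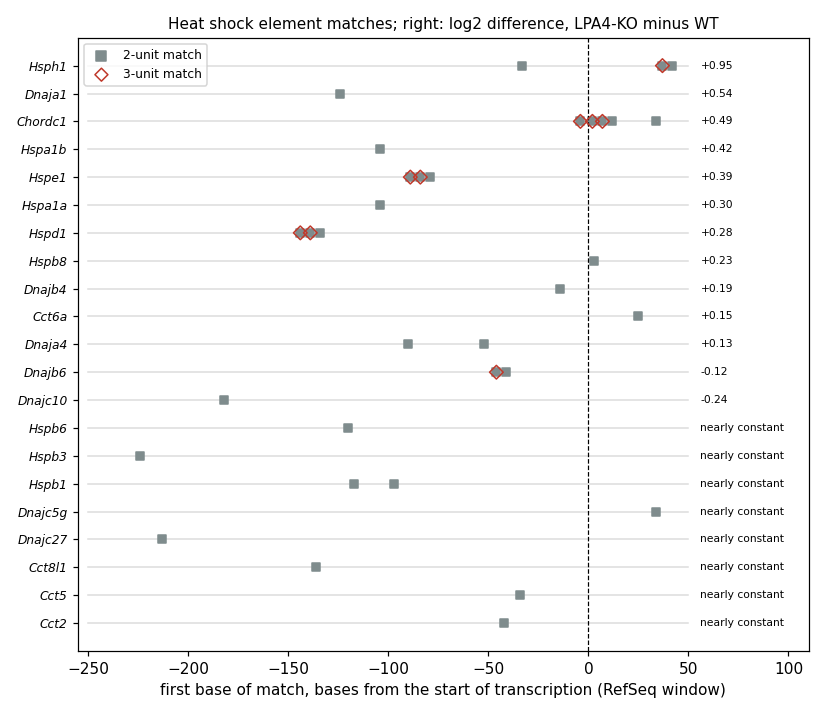
Position of the motif matches relative to the transcription start (bases, negative before the start) for the 21 chaperone genes with a match, 1 window per gene, with the log2 difference LPA4-KO minus WT at the right, or a remark where the gene was nearly constant. The 3-unit matches lie in Hsph1, Hspd1, Hspe1, Chordc1 and Dnajb6.

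Other genes of the same systems were read from separate lists. Of 6 genes listed for the heat shock factors, 5 were measured: Hsf2, Hsf4, Hsf5 and the factor-binding genes Hsbp1 and Hsbp1l1. All 5 were nearly constant. Hsf1 was not among the measured genes, so nothing is said of it here. Of 13 Hsp70 co-chaperones outside the rule, 4 varied and none passed over all genes or among varying genes; Sgta had the smallest p, with 0.24 ± 0.07 (SE, adjusted p = 0.165). Another list held 11 measured genes, the Hsp90 co-chaperones together with Hsp90b1 and Trap1, which are forms of Hsp90 itself. Of these 11, 5 varied, all with positive differences and a median of 0.21, and none passed over all genes. Fkbp4 had the smallest p of the 11, with 0.21 ± 0.05 (SE, adjusted p = 0.117). Trap1, the mitochondrial Hsp90, rose among varying genes by 0.33 ± 0.09 (0.143 over all genes and 0.0357 among varying genes). Of 10 prefoldin and CCT partner genes, a list that also held the ring subunit Tcp1, 4 varied, 3 of them negative, and none passed. Pfdn5 had the smallest p there, with -0.09 ± 0.03 (SE, adjusted p = 0.186). Of 9 mitochondrial quality control genes, 3 varied. Htra2, a protease of the intermembrane space, fell among varying genes by 0.37 ± 0.10 (0.134 and 0.0335). The nearly constant Lonp1 had the smallest p of this list, with 0.0089 ± 0.0015 (SE, adjusted p = 0.0542). Of the endoplasmic reticulum chaperones that the rule left out, Dnajb9 rose by 0.51 ± 0.07 (adjusted p = 0.0356), while Hspa5 and Dnajc3 differed by 0.18 ± 0.08 and 0.02 ± 0.14 (0.289 and 0.969).

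Lists that could move with these genes gave the following values. Of 16 immediate early genes, which respond to handling of tissue, 12 varied, 5 positive and 7 negative, none passed over all genes, and Ier5 fell among varying genes by 0.58 ± 0.21 (adjusted p = 0.0482). Fat cell markers varied in 6 of 8, 5 positive and 1 negative, with none passing and a mean per array of 11.53 to 11.64 in LPA4-KO and 11.35 to 11.68 in WT. All 9 varying progenitor markers were lower, with means of 9.36 to 9.74 against 9.76 to 10.06, and Dpt fell by 0.43 ± 0.04 (0.0229). All 8 mesothelial markers were lower, with means of 7.60 to 8.13 against 8.03 to 8.86. The 7 varying macrophage markers were lower too, with 9.38 to 9.54 against 9.60 to 9.80. In neither of these 2 lists did any pass over all genes. Among varying genes, of which 11.5% fell, 3 progenitor, 3 mesothelial and 2 macrophage markers fell. The 2 varying lymphocyte markers were lower, 2 of 3 endothelial markers were lower, and none passed; Alas2, a red cell gene, differed by 0.48 ± 0.13 (0.128 over all genes and 0.0244 among varying genes). The part of these cell types in the chaperone differences was not tested.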

How the data were processed

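Total RNA of 8 fat samples was labelled as biotinylated aRNA and hybridised to Affymetrix mouse 3′ arrays, per the labels' protocols. The values in the deposited series table were read as log2; the submitters' processing notes name R 2.14.0, and the sources used here state neither the background correction, normalisation and summarisation nor the log base. Probe sets were named through the platform annotation: of 45101, 34945 had 1 symbol and 932 several; the latter were left out. Each gene took its probe set with the highest mean. LPA4-KO and WT were compared with limma 3.58.1 (lmFit, eBayes with trend, R 4.3.3) over all 18193 genes, and again over the 4029 genes with a range above 0.1, with Benjamini-Hochberg adjustment and a threshold of 0.05; the script was tested on simulated data. Single values and pairs had 2-sided exact permutation tests, for which 4 against 4 arrays cannot go below 0.0286. The number of arrays limits the precision, and p-values measure the spread between these samples.

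The members, the lists and the limit on range were chosen with earlier results of these data known. The rule for named genes took every called member, together with Lpar4 and fixed paralogues. Among varying members of each family, it also took those with the smallest p, the highest mean and the largest difference in each direction. This gave 26 members in all. From the lists of the same systems it took called genes and the one with the smallest p. Dnaja3, Dnaja4, Dnajc21, Chordc1, Hspb7, Hspa1a, Hspa1b, Hspa2, Cct3 and further list genes were named after their values were seen. Pairs with Hsp90ab1 or with nearly constant genes were not computed. Alternatives covered scaling, filter, probe set rule, variance model, array weights, a replicate block and leaving out each array.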

Additional observations from a re-analysis of the deposited data

Results flagged for a closer look

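In 2 of the 52 groups of 4 arrays examined, 1 array stood far from the other 3; by chance about 5% of groups would. Cacybp in LPA4-KO was lowest in replicate 2, at 9.36, with the nearest other array at 9.39, so the gap is wide only against a very narrow group. Without that array its difference was 0.50 (adjusted p = 0.0642). Dnajc7 in LPA4-KO was lowest in replicate 1, at 8.89, with the nearest other array at 9.32. Without that array its difference was 0.22 (adjusted p = 0.413).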

How the results depend on the processing

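The members that rose and fell over all genes (6 and 0) numbered 15 and 4 with varying genes alone, also when these were median-centred, 7 and 1 among genes above the median level, 7 and 0 with array weights, and 12 and 1 at an adjusted p under 0.10, the nearly constant Dnajc11 among the 12. Both other probe set rules gave 6 and 0: with the mean of all probe sets Hsph1 no longer passed and the nearly constant Dnajb5 did, and with the most variable probe set Dnaja1 no longer passed and Cct3 did. Quantile normalisation gave 42 and 4 and median centring 59 and 4, because many nearly constant genes were then called: over all genes 8799 and 14152 rose. Under 0.01 the counts were 0 and 0. With 1 array left out, 0 to 1 rose and 0 fell; among varying genes alone, 9 to 14 rose and 1 to 3 fell, where the full fit gave 15 and 4 and the stricter threshold of 0.01 gave 4 and 0. The replicate block gave 0 calls over all genes, and 15 and 2 among varying genes. The deviations of samples with the same replicate number correlated at -0.18 to 0.24, and those of differently numbered samples at -0.27 to 0.31. With 4 samples a group, these values cannot decide whether the numbers pair the samples.

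Hspa4 turned positive under quantile normalisation (0.0079), median centring (0.0061), varying genes with median centring (0.015), array weights (0.026), the mean of probe sets (0.13) and the most variable probe set (0.22), and ran from -0.081 to 0.042 with 1 array left out. With the most variable probe sets, Hspa8 minus Hspa9 changed by 0.32 in place of -0.23. With 1 array left out, the pair changes ran from 0.87 to 1.07 (Hsph1, Hspa4), -0.30 to -0.17 (Hspa8, Hspa9) and 0.34 to 0.46 (Dnaja1, Dnaja2), and these 3 reached an adjusted exact p of 0.0476 without WT replicate 2. Over the 26 named genes, 160 of 208 values with an array left out kept direction and side of the threshold, 44 no longer passed and 4 reversed; under the other settings the numbers were 229, 8 and 6 of 285, with 42 newly passing. The cause of these changes was not tested. With 4 arrays a group, small differences are not resolved, and genes cannot be judged at a nearly constant probe set.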
